A study of Mus musculus with 2 samples.

Results

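The cones described here were the barcodes of a mouse retina single-cell RNA data set that carried at least 4 of 8 cone genes, *Arr3*, *Opn1sw*, *Opn1mw*, *Gnat2*, *Pde6h*, *Gngt2*, *Pde6c* and *Cngb3*. The 8 genes together had to reach at least 10 UMIs and at least 0.3% of the UMIs of the barcode, where the UMI, a molecular tag, makes each captured RNA count once. Of 3670 barcodes that passed the cell filter, 153 met this rule, 54 of 2323 in the MSC-sEV library and 99 of 1347 in the PBS library. Each library was made from the pooled retinas of 6 C57BL/6 mice, 6 to 8 weeks old, 2 weeks after optic nerve injury, which both groups had received. One group was given what the labels call MSC-sEV and the other PBS. Cells freed by papain were selected on magnetic beads for CD45, the surface marker of leukocytes, and the labels call the cell type retinal immune cells, so cones were not the cells that the selection was aimed at. With 1 pool of mice per group no test between groups was possible, and all intervals are 95% intervals for counting error alone, which leave out how mice and cells vary.

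Cones are the photoreceptors of daylight and colour vision, and in the mouse they are far outnumbered by rods. Light activates a cone opsin, short-wave *Opn1sw* or medium-wave *Opn1mw*, which acts through cone transducin (*Gnat2*, *Gngt2*) on the cone phosphodiesterase (*Pde6c*, with the inhibitory subunit *Pde6h*) and so closes a cyclic-nucleotide-gated channel (*Cnga3*, *Cngb3*), while the cone arrestin *Arr3* switches the opsin off. Many mouse cones make both opsins, with short-wave opsin dominating in the ventral retina and medium-wave opsin in the dorsal retina, and a smaller class makes short-wave opsin alone.

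The 8 rule genes lie on 6 chromosomes of GRCm38 (mm10), as annotated by GENCODE M21. *Opn1sw* spans chr6:29376671-29388468 on the minus strand, *Opn1mw* chrX:74127464-74150760, *Arr3* chrX:100605497-100618493, *Gnat2* chr3:108092789-108101432, *Pde6h* chr6:136923832-136968865, *Gngt2* chr11:95837216-95845734, *Pde6c* chr19:38132781-38183958 and *Cngb3* chr4:19280850-19510623, these 7 on the plus strand. The RefSeq table of promoters (GRCm38.p6) held 5 of the 8 genes. The 250 bases before the RefSeq start are shown for both opsins and *Arr3*, because the balance of the opsins is described below, and for *Gnat2*, which was added after its match was seen. Capitals mark TAATC or its complement GATTA, the core of the motif of the photoreceptor factor Crx. The windows are chr6:29380514-29380763 (minus strand), chrX:74127216-74127465, chrX:100605247-100605496 and chr3:108092816-108093065.
Opn1sw: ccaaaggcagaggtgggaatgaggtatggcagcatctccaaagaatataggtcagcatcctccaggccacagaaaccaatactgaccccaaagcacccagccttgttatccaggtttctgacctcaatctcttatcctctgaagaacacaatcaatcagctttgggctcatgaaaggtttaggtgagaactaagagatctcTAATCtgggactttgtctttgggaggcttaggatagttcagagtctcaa
Opn1mw: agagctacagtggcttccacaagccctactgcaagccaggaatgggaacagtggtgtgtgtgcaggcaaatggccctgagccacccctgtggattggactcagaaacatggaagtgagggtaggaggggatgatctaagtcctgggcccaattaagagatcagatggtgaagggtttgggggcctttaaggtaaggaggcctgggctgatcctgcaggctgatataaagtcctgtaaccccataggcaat
Arr3: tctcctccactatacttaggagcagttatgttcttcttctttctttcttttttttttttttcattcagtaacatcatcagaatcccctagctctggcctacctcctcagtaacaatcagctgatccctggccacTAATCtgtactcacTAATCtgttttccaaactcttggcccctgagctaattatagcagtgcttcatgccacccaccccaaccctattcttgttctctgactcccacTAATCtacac
Gnat2: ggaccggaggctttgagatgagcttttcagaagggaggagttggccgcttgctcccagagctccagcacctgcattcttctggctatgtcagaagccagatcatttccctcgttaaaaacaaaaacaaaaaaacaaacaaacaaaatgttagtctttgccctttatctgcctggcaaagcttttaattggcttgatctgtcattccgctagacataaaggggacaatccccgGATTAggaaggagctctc

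The core stood in 3 of the 5 promoters, 3 times in *Arr3* and once each in *Opn1sw* and *Gnat2*, and in 19.8% of the 32851 promoters of the table, both strands searched. The longer form, TAATCC or GGATTA, stood in 1 of the 5, beginning 19 bases before the *Gnat2* start, and in 6.25% of all promoters. The letters TAATC are contained in TAATCC and GATTA in GGATTA, so both searches overlap. No core was found in the *Opn1mw* window, which says only that these letters are absent from those bases. The RefSeq starts of *Opn1sw* and *Gnat2* lie inside longer GENCODE spans, so other starts are annotated for these genes.

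The barcodes that met the rule differed in how much rod RNA they held. Markers of rods, 14 genes such as the rod transducin *Gnat1*, took a median of 2.91% of the UMIs of an MSC-sEV cone and 5.26% of a PBS cone, against 2.33% and 1.28% for the rule genes. Rod markers equalled or exceeded the rule genes in 29 of 54 MSC-sEV and 69 of 99 PBS cones. Microglia and other leukocyte markers took more than 0.3% of UMIs in 1 MSC-sEV and 24 PBS cones. The remaining barcodes, 24 in the MSC-sEV library (44.4%, 30.9 to 58.6) and 29 in the PBS library (29.3%, 20.6 to 39.3), are called cone-dominant. This subset was defined after the data had been seen, and it selects for high rule genes and for low rod, microglia and other leukocyte markers, so none of these is a finding within it.

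**Figure D1:**
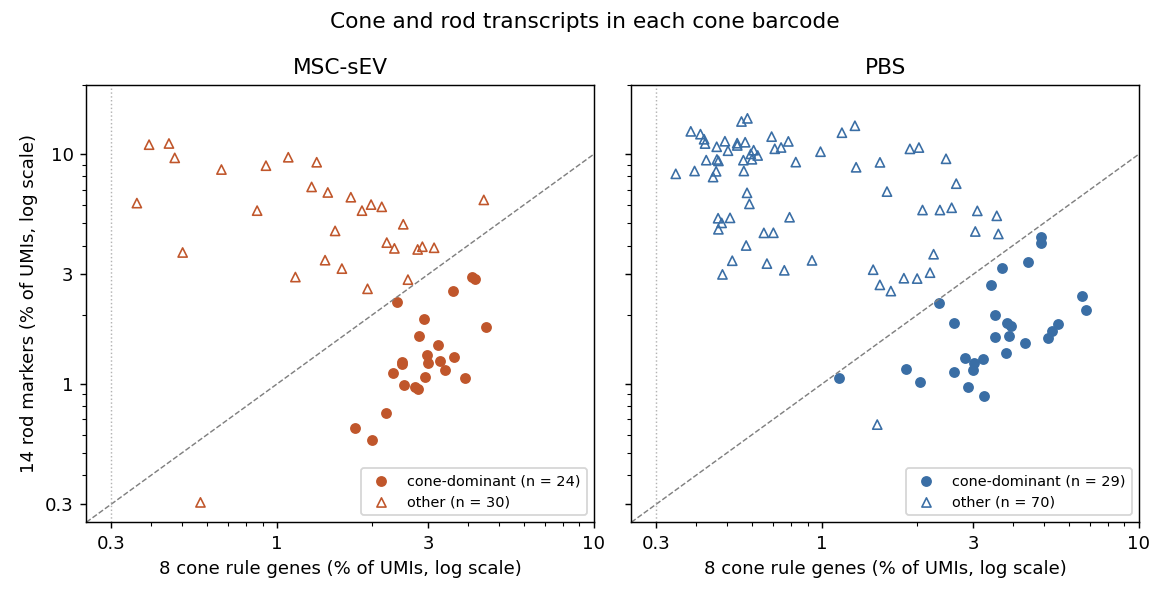
Share of UMIs from the 8 rule genes (horizontal log axis, percent) and from the 14 rod markers (vertical log axis, percent) in each barcode that met the cone rule, MSC-sEV at left and PBS at right, with a dashed line where both shares are equal and a dotted line at the threshold of 0.3%. Cone-dominant barcodes (24 and 29, filled) lie below the dashed line, and the other barcodes (30 and 70, open) extend to 11.1% and 14.3% rod markers.

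Depth moved with this content. Cone-dominant barcodes had a median of 11727 UMIs in the MSC-sEV library and 9167 in the PBS library, and the other cones 20694 and 23562.5, against 2527 and 2433.5 UMIs in rods. The deepest cone held 103103 UMIs in the MSC-sEV and 163500 in the PBS library, and neither was cone-dominant. Over all cones the medians were 14274.5 and 13556 UMIs, 4377 and 4099 genes, and 5.62% and 5.83% mitochondrial UMIs. Barcodes with more than 1 cell were not removed, and their part in the rod content was not tested.

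Markers of other cell types were summed in all cones and in cone-dominant ones, where the selection itself keeps rod, microglia and other leukocyte markers low. The sums below are in CPM, in which the UMIs of a gene or list are brought to a common total per class and library. The 14 Müller glia markers summed to 530 CPM in MSC-sEV and 725 CPM in PBS cone-dominant cones, against 1707 and 4671 CPM over all cones, and the 12 microglia markers to 305 and 238 CPM, against 267 and 2911 CPM over all cones. The 20 markers of other leukocytes summed to 260 and 73.7 CPM in cone-dominant cones and to 641 and 817 CPM over all cones, with the monocyte gene *Ly6c2* and the granulocyte genes *Retnlg* and *Ccr3* at 0 in the cones of both libraries. Bipolar cell markers summed to 720 CPM in MSC-sEV and 565 CPM in PBS cone-dominant cones, and to 542 and 774 CPM over all cones. Amacrine and horizontal, ganglion, endothelial and pigment epithelial markers summed to less than 100 CPM each. Rod markers summed to 14876 and 20269 CPM in cone-dominant cones, against 51388 and 87037 CPM over all cones. Differences between the libraries over all cones therefore carry different amounts of rod, glial and microglial RNA, and most are set beside their value in cone-dominant cones.

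Few barcodes lay near the threshold in the MSC-sEV library and more in the PBS library. The cones with the lowest share of rule genes had 0.361%, 0.395% and 0.456% in the MSC-sEV library and 0.345%, 0.385% and 0.396% in the PBS library. Just outside the share threshold, among barcodes that met the other conditions, the MSC-sEV library held 2, at 0.194% and 0.0546%, and the PBS library 26, of which the highest had 0.294%, 0.262% and 0.256%. All 8 rule genes were seen in 25 MSC-sEV and 49 PBS cones. No barcode sequence was shared by the libraries.

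Cones took a smaller share of the MSC-sEV library. They were 2.32% (1.75 to 3.02) of its kept barcodes, against 7.35% (6.01 to 8.88) of the PBS library, a ratio of 0.316. Leukocytes took unlike shares of the libraries, and among photoreceptors alone, cones plus rods, cones were 54 of 1269 (4.26%, 3.21 to 5.52) in MSC-sEV and 99 of 1057 (9.37%, 7.68 to 11.3) in PBS, a ratio of 0.454. Cone-dominant barcodes were 1.89% (1.22 to 2.80) of MSC-sEV and 2.74% (1.84 to 3.92) of PBS photoreceptors, a ratio of 0.689 with overlapping intervals. Fewer barcodes of mixed content and fewer cones cannot be told apart in the larger difference, and the bead selection can set all of these shares. Some PBS barcodes also had near-equal content. An example is a pair with 41888 and 45413 UMIs, 98 *Opn1sw* UMIs each, 11.2% and 11.1% rod markers and 0.559% leukocyte markers in both. Such likeness was not limited to this pair. Barcodes with 44600 and 46648 UMIs had 8.21% and 8.41% rod markers and 1.38% and 1.33% Müller glia markers. Those with 44318 and 48557 UMIs had 1.39% and 1.43% leukocyte markers, and those with 9605 and 11551 UMIs 2.30% and 2.16%. The intervals count each barcode as a separate cone, and whether such barcodes were separate cells was not tested.

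The rule genes chose the cones, so their levels are given as a description. Over all cones 7 of 8 were at a higher level in the MSC-sEV library, and in cone-dominant cones 1 of 8. *Arr3* stood at 1361 CPM in MSC-sEV and 703 CPM in PBS cones (ratio 1.94, 1.81 to 2.08), and at 2323 and 2532 CPM in cone-dominant cones (0.918, 0.821 to 1.03). The phosphodiesterase subunit *Pde6c* stood at 735 and 316 CPM (2.33, 2.11 to 2.57), and its ratio in cone-dominant cones was 1.08 (0.935 to 1.26). The channel subunit *Cngb3*, at 267 and 123 CPM (2.16, 1.84 to 2.55), had a ratio of 0.917 there (0.725 to 1.16). In these 3 genes the interval of the cone-dominant ratio included 1.

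The transducin subunits *Gnat2*, at 1444 CPM in MSC-sEV and 946 CPM in PBS cones (1.53, 1.43 to 1.63), and *Gngt2*, at 3096 and 2008 CPM, had cone-dominant ratios of 0.733 and 0.802. *Pde6h* stood at 4895 and 2951 CPM (1.66, 1.60 to 1.72), with 0.853 in cone-dominant cones. *Opn1mw* stood at 1814 and 885 CPM (2.05, 1.93 to 2.18), and at 3192 and 3662 CPM in cone-dominant cones (0.872, 0.794 to 0.957). *Opn1sw* was the rule gene with a lower level in MSC-sEV over all cones, 3272 CPM against 3813 CPM in PBS (0.858, 0.826 to 0.892), and in cone-dominant cones it stood at 6249 and 12052 CPM (0.519, 0.489 to 0.550). The ratios over all cones thus moved with the larger rod content of the PBS cones, whose part in them was not tested. *Arr3*, *Gnat2*, *Gngt2*, *Pde6h*, *Opn1mw* and *Cngb3* had ratios above 1 over all cones and below 1 in cone-dominant cones.

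**Figure D2:**
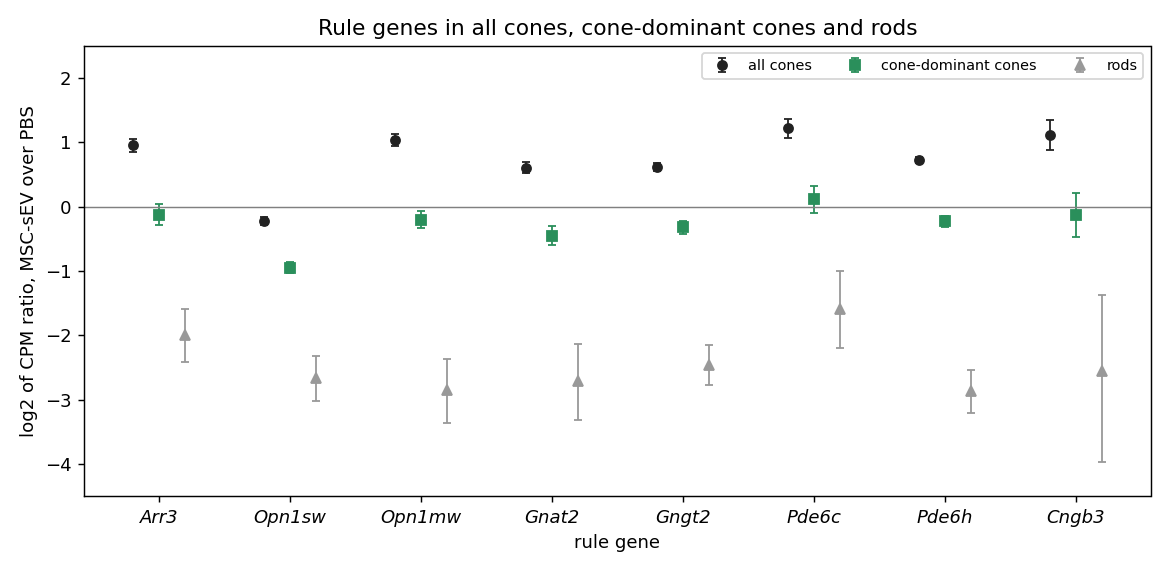
Log2 of the CPM ratio, MSC-sEV over PBS, for each rule gene in all cones (black circles), cone-dominant cones (green squares) and rods (grey triangles), with 95% counting intervals. All cones lie above 0 except for *Opn1sw*, cone-dominant cones lie near or below 0, and rods lie between -1.58 and -2.86.

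Rule genes were also seen outside the cones, where RNA free in the droplets and expression by the cells cannot be told apart. Together they summed to 104 CPM in MSC-sEV and 606 CPM in PBS rods, and to 232 and 383 CPM in microglia, of which *Gngt2* gave 190 and 261 CPM, against 16882 and 11744 CPM in cones. Of the 8 genes, 7 were measured in rods at 50 or more UMIs, and these 7 were at least 2-fold lower in MSC-sEV rods. *Arr3* had a UMI in 96.3% of MSC-sEV and 96.0% of PBS cones, against 12.3% and 7.89% of microglia, at median depths of 14274.5 and 13556 UMIs in cones and 10363.5 and 4683 in microglia. Thinned to 1000 UMIs per barcode, which left out 1 cone of each library, *Arr3* was seen in 71.7% and 55.1% of cones and 0.236% and 2.86% of microglia. *Gngt2* was the rule gene that also stood out in microglia, with a UMI in 68.3% and 72.4% of them, and thinned in 17.3% and 30.0%.

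Single cones carried mostly 1 opsin, and the libraries differed in which. Among the 50 MSC-sEV and 84 PBS cones with at least 10 opsin UMIs, the median share of *Opn1sw* among opsin UMIs was 15.6% in MSC-sEV and 82.1% in PBS. Cones with over 80% *Opn1sw*, called Opn1sw-rich, numbered 20 of 50 in MSC-sEV (40.0%, 26.4 to 54.8) and 45 of 84 in PBS (53.6%, 42.4 to 64.5). Opn1mw-rich cones, with under 20% *Opn1sw*, numbered 26 (52.0%, 37.4 to 66.3) and 17 (20.2%, 12.3 to 30.4). Mixed cones numbered 4 (8.00%, 2.22 to 19.2) and 22 (26.2%, 17.2 to 36.9). The intervals for Opn1mw-rich cones did not overlap between the libraries, and those for Opn1sw-rich cones did. Both opsins are rule genes, so these shares are a description. The intervals count each barcode of 1 pool per library as a separate cone, also the PBS barcodes of near-equal content, which include Opn1sw-rich ones.

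The number of *Opn1sw* UMIs per cone ranged from 0 to 346 in MSC-sEV, with a median of 3, and from 0 to 456 in PBS, with a median of 66. *Opn1mw* ranged from 0 to 132 in MSC-sEV, with a median of 31, and from 0 to 109 in PBS, with a median of 11. No *Opn1sw* was seen in 20 MSC-sEV and 18 PBS cones, and no *Opn1mw* in 7 and 10. Both opsins were seen in 27 of 54 and 71 of 99 cones.

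In cone-dominant cones, which are part of the same barcodes, Opn1mw-rich cones also took the larger share in MSC-sEV, with wider intervals. Opn1mw-rich cones were 14 of 23 in MSC-sEV (60.9%, 38.5 to 80.3) and 7 of 23 in PBS (30.4%, 13.2 to 52.9), mixed cones 1 and 7, and Opn1sw-rich cones 8 and 9. The intervals of the Opn1mw-rich shares overlapped there. Within 5 percentage points of a limit between ranges lay 6 MSC-sEV and 17 PBS cones. *Opn1sw* had a UMI in 6.50% of MSC-sEV and 28.1% of PBS rods and in 13.2% and 26.3% of microglia, and the part of free *Opn1sw* RNA in the mixed range was not tested.

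**Figure D3:**
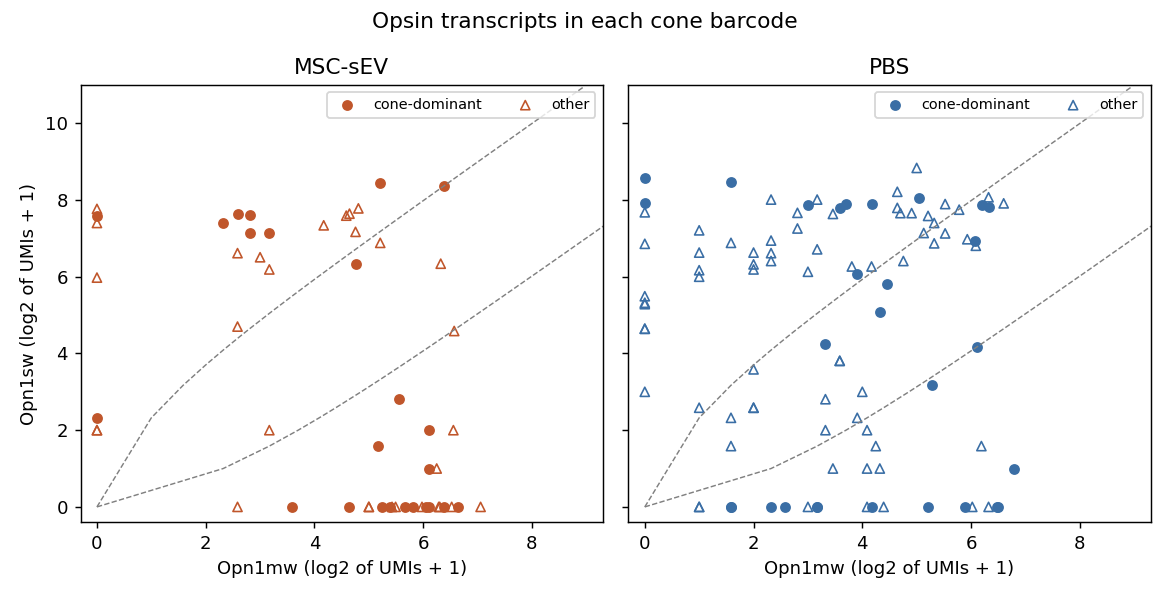
*Opn1mw* UMIs (horizontal axis) and *Opn1sw* UMIs (vertical axis) in each cone, both as log2 of UMIs + 1, MSC-sEV at left and PBS at right, with filled circles for cone-dominant barcodes and open triangles for the others. Dashed lines mark 80% and 20% *Opn1sw*. The MSC-sEV library has 26 cones in the Opn1mw-rich range at lower right, against 17 in the PBS library, and 4 against 22 between the lines.

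Some genes outside the rule differed between Opn1sw-rich and Opn1mw-rich cones in the same direction in both libraries. Of 6114 genes with at least 20 UMIs in these cones of each library, 24 were at least 2-fold higher in Opn1sw-rich cones in both (0.393%) and 41 at least 2-fold lower in both (0.671%). Within single libraries 166 genes in MSC-sEV and 263 in PBS were at least 2-fold higher, and 276 and 563 lower. How many genes unrelated calls would share was not tested. *Ccdc136*, a coiled-coil domain gene, stood at 1365 CPM in Opn1sw-rich against 92.4 CPM in Opn1mw-rich cones of the MSC-sEV library (14.8-fold, 11.3 to 19.7), and at 544 against 56.8 CPM in the PBS library (9.57-fold, 5.94 to 16.5). In cone-dominant cones it was 12.9-fold and 21.1-fold higher. *Syndig1l* had 57 UMIs in Opn1sw-rich and 2 in Opn1mw-rich cones of the MSC-sEV library, and 76 and 0 UMIs in the PBS library. With 3 counts in place of 0 it was 5.87-fold higher in PBS, where the interval began at 4.65-fold. *Pcp4*, a calmodulin-binding peptide, had 51 and 1 UMIs in the MSC-sEV library and 183 and 6 in the PBS library (7.06-fold), but it was seen in 4 MSC-sEV and 34 PBS cones in all. In cone-dominant cones 10 of 1396 genes were at least 2-fold higher in both libraries (0.716%) and 9 lower (0.645%). Within single libraries 34 in MSC-sEV and 78 in PBS were higher there, and 29 and 122 lower. By the interval bound nearest to 1 in the library where it was smaller, these 3 genes were also among the 5 highest in cone-dominant cones. Because cone-dominant cones are part of the same barcodes, this recurrence is not separate support. For *Pcp4* in MSC-sEV the counts were the same 51 and 1 UMIs. Its value there rested on few barcodes, with a UMI in 12.5% of MSC-sEV and 10.3% of PBS cone-dominant cones. *Rtl8a*, with 38 and 9 UMIs in MSC-sEV and 45 and 7 in PBS, and *Guca1a*, at 1.67-fold and 1.86-fold and so under the 2-fold limit, completed the 5.

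*Vax2*, a homeodomain factor of ventral retina, had 11 UMIs in Opn1sw-rich and 2 in Opn1mw-rich cones of the MSC-sEV library, and 100 and 2 in the PBS library. In cone-dominant cones it had 4 and 0 UMIs in MSC-sEV and 3 and 1 in PBS, too few to compare. *Tbx2*, a T-box factor of dorsal retina, had 3 and 3 UMIs in MSC-sEV and 23 and 2 in PBS (1.59-fold and 2.66-fold), with intervals that held 1. The neighbour of *Vax2* on the other strand, *Vax2os*, stood at 248 against 38.2 CPM in MSC-sEV (6.48-fold) and at 398 against 50.1 CPM in PBS (7.95-fold). Whether the counting used the strand is not given in the sources used here, so both genes may share reads. *Vax2os* also had a UMI in 50.0% of MSC-sEV and 49.1% of PBS rods. Rod markers took a median of 3.90% of UMIs in Opn1sw-rich and 1.40% in Opn1mw-rich cones of the MSC-sEV library, and 8.44% and 3.45% in the PBS library. The part of rod RNA in the *Vax2* and *Vax2os* values was not tested. The long noncoding RNA *A930009A15Rik* completed the 5 highest genes, with 23 against 5 UMIs in MSC-sEV and 31 against 0 in PBS. With 3 counts in place of 0 it was 2.39-fold higher in PBS, where the interval began at 1.83-fold.

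Of the genes lower in Opn1sw-rich cones, *Smug1*, a uracil-DNA glycosylase, had the clearest values. It stood at 55.6 CPM in Opn1sw-rich against 272 CPM in Opn1mw-rich cones of the MSC-sEV library (4.90-fold lower) and at 37.1 against 180 CPM in the PBS library (4.86-fold lower). In cone-dominant cones it had 7 against 71 UMIs in MSC-sEV (9.32-fold lower). In PBS it had 1 against 33 UMIs there, 43.4-fold lower with a wide interval of the ratio (0.000567 to 0.138). *Gm44532* had 0 against 52 UMIs in MSC-sEV and 9 against 14 in PBS. With 3 counts in place of 0 it was 10.9-fold lower in MSC-sEV, with an interval of the ratio from 0 to 0.117. *Fam159b* was 5.67-fold and 4.50-fold lower, *Pmepa1*, an inhibitor of TGF-beta signalling, 3.43-fold and 2.20-fold, and the ephrin receptor gene *Epha5* 3.09-fold and 2.66-fold. *Thrb*, the thyroid hormone receptor that drives medium-wave opsin, stood at 394 against 574 CPM in MSC-sEV (ratio 0.687) and at 124 against 441 CPM in PBS (0.281), with 0.455 and 0.177 in cone-dominant cones. The nuclear receptor gene *Nr2f2* had 1 UMI in Opn1sw-rich and 50 in Opn1mw-rich cones of the MSC-sEV library, and 16 and 8 in the PBS library, where its ratio of CPM was 0.463 with an interval that included 1.

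**Figure D4:**
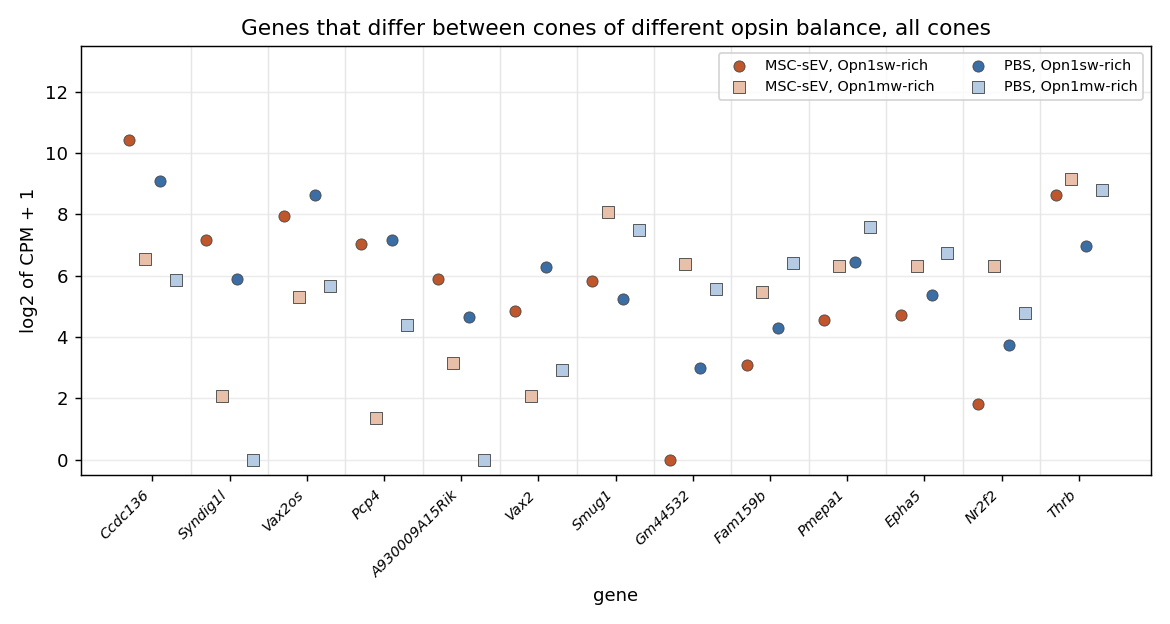
Level, as log2 of CPM + 1, of genes that differed between Opn1sw-rich and Opn1mw-rich cones, in the MSC-sEV (orange) and the PBS (blue) library, with circles for Opn1sw-rich and squares for Opn1mw-rich cones. *Ccdc136* lies higher in Opn1sw-rich cones (1365 against 92.4 CPM in MSC-sEV, 544 against 56.8 CPM in PBS) and *Smug1* lower (55.6 against 272 and 37.1 against 180 CPM).

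Set against rods, the most similar cells of the data set, cones carried genes that the rule did not use. The cone and rod classes were defined from genes of the same barcodes, so these ratios are a description. *Kcne2*, a potassium channel subunit, stood at 264 CPM in cones and 0.919 CPM in rods of the MSC-sEV library (287-fold, 111 to 1061) and at 204 against 9.98 CPM in the PBS library (20.5-fold, 14.7 to 29.3). *Sphkap*, a kinase-anchoring protein, was 161-fold and 13.8-fold higher in cones, *Olfm1*, an olfactomedin, 99.0-fold and 13.2-fold, and *Agr2*, a disulfide isomerase, 182-fold and 38.2-fold. *Cnga3*, the other subunit of the cone channel, was 85.1-fold and 32.0-fold higher, and *Slc24a2*, the cone exchanger of sodium, calcium and potassium, 291-fold and 15.1-fold. *Adrb1*, the beta-1 adrenergic receptor gene, stood at 349 CPM in cones against 3.44 CPM in rods of the MSC-sEV library and at 146 against 13.4 CPM in the PBS library. *Clca1* had 78 UMIs in MSC-sEV cones and 0 in rods, with 25.5-fold in PBS.

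The fold over rods was larger in the MSC-sEV than in the PBS library for each of the 15 genes named by this rule, which also held *Ccdc136*, *Syndig1l*, *Ppm1j*, *Aplp1*, *Gpat3*, *Pgc* and *Gm42697*. *Cnga3* stood at 78.2 CPM in MSC-sEV and 25.2 CPM in PBS cones, and at 0.919 and 0.788 CPM in rods. In cone-dominant cones the fold of *Kcne2* was 445 in MSC-sEV and 66.5 in PBS, and that of *Slc24a2* 513 and 52.0. These folds also carry unlike rod levels, 0.919 CPM in MSC-sEV and 9.98 CPM in PBS for *Kcne2*, and 0.689 and 4.73 CPM for *Slc24a2*. In cone-dominant cones themselves *Kcne2* was lower in MSC-sEV, at 409 against 664 CPM, and *Slc24a2* higher, at 353 against 246 CPM. Rod genes were not absent from cone-dominant cones, where the level of *Gnat1* was 0.0727 of that in rods in the MSC-sEV library and 0.0893 in the PBS library.

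Over the genes measured in each, a larger share passed 2-fold between the libraries in all cones than in cone-dominant ones, but the gene sets were unlike. Of 7499 genes with at least 50 UMIs over the cones of both libraries, 1211 were at least 2-fold higher in MSC-sEV (16.1%) and 389 at least 2-fold lower (5.19%), and the median log2 ratio was 0.22. These counts were 669 and 663 with median-of-ratios scaling, 638 and 494 by the mean of per-cell CPM, and 11 and 26 of 455 genes when thinned to 1000 UMIs. Of 2112 genes measured in cone-dominant cones, 78 were at least 2-fold higher (3.69%) and 25 lower (1.18%), and the median was 0.0076. The same limit of 50 UMIs kept fewer genes there, and shares over the same genes were not compared. In rods 9.75% of 9380 genes were at least 2-fold higher and 1.63% lower, with a median of 0.25. The summed UMIs were 1125681 in MSC-sEV and 2457955 in PBS cones, and 288860 and 244116 in cone-dominant cones. The 14 rod markers had a median of -0.49 over all cones, with 3 at least 2-fold lower, and of -0.29 in cone-dominant cones. Gene lists are described below by their counts and medians, to be read beside these.

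Of the phototransduction genes outside the rule, 5 of 19 measured were at least 2-fold higher in MSC-sEV cones and 2 lower (median 0.45), against 1 and 1 of 18 in cone-dominant cones (median -0.15). *Cnga3* stood at 78.2 CPM in MSC-sEV and 25.2 CPM in PBS cones (3.10-fold, 2.21 to 4.36), and 1.65-fold higher (0.967 to 2.90) in cone-dominant cones. The opsin kinase gene *Grk1*, which in the mouse serves rods and cones, stood at 735 and 247 CPM (2.97-fold, 2.67 to 3.30), and was 1.99-fold higher (1.55 to 2.59) in cone-dominant cones and 2.60-fold in rods. Recoverin, *Rcvrn*, the calcium sensor that restrains this kinase, stood at 3051 and 5842 CPM (ratio 0.522, 0.503 to 0.542), with 0.511 in cone-dominant cones. It was lower in MSC-sEV on both counts, whereas *Cnga3* and *Grk1* were higher on both.

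The guanylate cyclase activators also had lower levels in MSC-sEV. *Guca1a* stood at 3099 CPM in MSC-sEV and 4014 CPM in PBS cones (ratio 0.772), with 0.808 in cone-dominant cones. *Guca1b* stood at 711 and 1526 CPM (0.466), with 0.442 in cone-dominant cones, from 23 and 44 UMIs. Its level there was 0.0527 of that in rods in MSC-sEV and 0.0923 in PBS, near the 0.0727 and 0.0893 of the rod gene *Gnat1*. The part of rod RNA in the *Guca1b* ratio was not tested. *Aipl1*, the chaperone of the photoreceptor phosphodiesterase, stood at 1144 and 1600 CPM (0.715), with 0.597 in cone-dominant cones. *Unc119*, a carrier of transducin, stood at 1725 and 3745 CPM (0.461), with 0.658. The cone transducin subunit *Gnb3* stood at 1619 and 1297 CPM (1.25, 1.18 to 1.32) over all cones but had a ratio of 0.737 in cone-dominant cones.

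Transcription factors of photoreceptors had 4 of 21 members at least 2-fold higher in MSC-sEV cones and 1 lower (median 0.57), and 0 of 11 past 2-fold in cone-dominant cones (median 0.18). *Thrb* stood at 498 CPM in MSC-sEV and 191 CPM in PBS cones (2.61-fold, 2.30 to 2.95), and had a ratio of 1.13 (0.930 to 1.38) in cone-dominant cones. *Nr2f2* was 4.21-fold higher (2.59 to 6.96) and *Sall3*, a zinc finger factor of cones, 2.98-fold (2.21 to 4.02), with 1.45 and 1.76 in cone-dominant cones. *Vax2* stood at 15.1 and 61.4 CPM (ratio 0.246, 0.140 to 0.407), and had 4 UMIs in the cone-dominant cones of each library. *Crx*, the homeodomain regulator of photoreceptor genes, stood at 906 and 548 CPM (1.65), with 1.33 (1.11 to 1.60) in cone-dominant cones. Over all cones *Thrb* and *Nr2f2* were thus higher and *Vax2* lower in MSC-sEV, as were the shares of the opsin ranges where they stood higher. The dorsal factor *Tbx2* was lower too, at 8.00 and 13.4 CPM (9 and 33 UMIs). *Vax2* stood at 57.0 CPM in the rods of both libraries, and at 13.8 CPM in MSC-sEV and 16.4 CPM in PBS cone-dominant cones. In cone-dominant cones the interval of *Thrb* included 1. The parts of the range shares and of rod RNA in these values were not tested.

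Genes of outer segment structure and of the matrix around it had 10 of 24 measured members at least 2-fold higher in MSC-sEV cones and 1 lower (median 0.73), and 2 and 0 of 17 in cone-dominant cones (median 0.28). *Rbp3*, the retinoid carrier of the matrix, stood at 2973 CPM in MSC-sEV and 1336 CPM in PBS cones (2.23-fold, 2.12 to 2.34) and at 2984 and 1204 CPM in cone-dominant cones (2.48-fold, 2.17 to 2.84), with 1.84-fold in rods. *Pcdh15*, a protocadherin of the Usher complex, stood at 713 and 174 CPM (4.11-fold, 3.65 to 4.63), and was 2.12-fold higher (1.73 to 2.60) in cone-dominant cones and 2.60-fold in rods. *Rpgrip1*, of the connecting cilium, stood at 1668 and 647 CPM (2.58-fold, 2.41 to 2.76), and was 1.60-fold higher (1.41 to 1.82) in cone-dominant cones. The disc rim proteins had lower levels, *Prph2* at 3218 and 5784 CPM (ratio 0.556) and *Rom1* at 3242 and 6773 CPM (0.479), with 0.845 and 0.738 in cone-dominant cones. *Rbp3* and *Pcdh15* thus passed 2-fold with and without the mixed barcodes, and were also higher in MSC-sEV rods.

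In the visual cycle list, 1 of 9 measured genes was at least 2-fold higher in MSC-sEV cones and 1 lower (median 0.061). In cone-dominant cones 2 of 3 measured genes were at least 2-fold higher (median 1.01), and without cones over 0.3% leukocyte markers the median was -0.093. *Abca4*, the retinoid transporter of outer segments, stood at 559 CPM in MSC-sEV and 344 CPM in PBS cones (1.62-fold), and was 2.01-fold higher (1.42 to 2.90) in cone-dominant cones. The retinol dehydrogenase gene *Rdh12* had a ratio of 1.04, with 0.845 in cone-dominant cones. *Rlbp1*, a gene of Müller glia and pigment epithelium, had a ratio of 0.301, at 62 UMIs in MSC-sEV and 450 in PBS, of which 1 and 9 lay in cone-dominant cones.

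Synaptic genes had 9 of 28 members at least 2-fold higher in MSC-sEV cones and 0 lower (median 0.84), and 2 and 0 of 25 in cone-dominant cones (median 0.19). The glutamate transporter gene *Slc1a2* stood at 1197 CPM in MSC-sEV and 506 CPM in PBS cones (2.36-fold, 2.19 to 2.56), with 1.14 in cone-dominant cones. *Elfn2*, a synaptic adhesion protein, stood at 45.3 and 12.2 CPM (3.71-fold, 2.32 to 6.04), and was 3.02-fold higher (1.27 to 8.26) in cone-dominant cones. The vesicular glutamate transporter gene *Slc17a7* stood at 1821 and 1454 CPM (1.25), with 1.24 there, and the vesicle calcium sensor *Syt1* at 1349 and 764 CPM (1.77), with 1.23. *Pclo*, a scaffold of the active zone, was 2.91-fold higher (2.38 to 3.56), with 1.21 in cone-dominant cones.

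In the list of cilium and transport genes 2 of 25 were at least 2-fold higher and 0 lower (median 0.51, and 0.033 over 10 genes in cone-dominant cones). *Dync2h1*, the motor of retrograde transport in cilia, stood at 110 CPM in MSC-sEV and 46.8 CPM in PBS cones (2.35-fold), and was 2.93-fold higher (1.55 to 5.91) in cone-dominant cones. *Cep290*, of the ciliary gate, stood at 540 and 331 CPM (1.63), with 1.23 there.

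Genes of energy metabolism had lower levels in MSC-sEV cones, but none of those measured in both lists passed 2-fold. All 41 nuclear-encoded genes of oxidative phosphorylation had ratios below 1 over all cones (median -0.40), between 0.570 for *Sdhd* and 0.957 for *Ndufs6*, but in cone-dominant cones 12 of 40 were above 1 (median -0.11). In glycolysis and lactate handling 16 of 23 members were below 1 (median -0.55) and 14 of 17 in cone-dominant cones (median -0.20). *Gapdh*, a glycolytic dehydrogenase, stood at 2965 CPM in MSC-sEV and 5461 CPM in PBS cones (0.543), with 0.787 in cone-dominant cones, and *Bsg*, the partner of lactate transporters that rods and cones display, at 761 and 1342 CPM (0.567), with 0.567. *Eno2*, the neuronal enolase, was higher, at 207 and 120 CPM (1.73, 1.45 to 2.06), and at 332 and 221 CPM in cone-dominant cones. The 81 ribosomal protein genes measured had a median of -0.50, and -0.13 in cone-dominant cones, with 0 of 81 past 2-fold. The medians of these lists were below 0 in rods too, so the lower levels were not particular to cones. In rods all 41 oxidative phosphorylation genes had ratios below 1 (median -0.45). In glycolysis and lactate handling 16 of 23 were below 1 in rods (median -0.32), and of ribosomal protein genes 79 of 81 (median -0.41).

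Mitochondrially encoded transcripts had higher levels in MSC-sEV cones in 11 of 13 cases (median 0.29), and in 3 of 13 in cone-dominant cones (median -0.097). *mt-Co1*, an oxidase subunit, stood at 7879 CPM in MSC-sEV and 6411 CPM in PBS cones (1.23), with 0.914 in cone-dominant cones and 0.704 in rods. *mt-Cytb*, of complex III, stood at 8383 and 10299 CPM (0.814), with 0.799.

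Stress and survival genes had 4 of 21 members at least 2-fold higher and 4 lower (median -0.16), against 9 higher of 24 in rods (median 0.49). In cone-dominant cones 0 of 5 were 2-fold higher or lower (median -0.29), while the median was 0.60 without cones over 0.3% leukocyte markers and 0.041 with rule genes at 1% or more. *Fgf2*, a growth factor that photoreceptors make under stress, stood at 98.6 CPM in MSC-sEV and 36.6 CPM in PBS cones (2.69-fold, 2.02 to 3.60), but had 10 and 1 UMIs in cone-dominant cones, against 158 and 42.6 CPM in rods. *Gpx4*, which removes lipid peroxides, stood at 1500 and 2596 CPM (0.578), with 0.709 in cone-dominant cones. The alpha-crystallin *Cryab* (0.242) and the factor *Cebpb* (0.233) were the lowest, with 1 UMI each in MSC-sEV cone-dominant cones, against 2 and 1 in PBS. In endoplasmic reticulum stress 2 of 19 were higher and 2 lower (median 0.026), with the chaperone *Hspa5* at 306 and 321 CPM (0.955, with 0.938 in cone-dominant cones). In cell death 1 of 7 was higher and 0 lower (median 0.053), with *Mcl1*, an inhibitor of apoptosis, at 68.4 and 69.2 CPM (0.989, with 0.756 in cone-dominant cones). Over the genes measured in cone-dominant cones these medians were 0.18 (6 genes) and 0.23 (2 genes).

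Immediate-early and heat shock genes had 1 of 23 members at least 2-fold higher and 7 lower (median -0.30), and 0 and 2 of 11 in cone-dominant cones (median 0.14). *Hspa8*, a constitutive chaperone, stood at 868 CPM in MSC-sEV and 1522 CPM in PBS cones (0.570), with 0.493 in cone-dominant cones, whereas *Hsp90aa1* stood at 2998 and 2306 CPM (1.30), with 1.21. In MHC class I presentation and interferon response 1 of 22 was higher and 8 lower (median -0.78), with *B2m*, the light chain of class I molecules, at 67.5 and 227 CPM (0.297) and the interferon-induced *Ifit3* at 5.33 and 83.8 CPM (0.0636). Without the cones over 0.3% leukocyte markers the median of this list was 0.59. In cone-dominant cones *B2m* had 7 and 2 UMIs, *Ifit3* 0 and 1, and the class I heavy chain *H2-D1* was 1.96-fold higher in MSC-sEV (1.12 to 3.55). The median of this list was thus above 0 once the leukocyte-rich barcodes, mostly of the PBS library, were left out.

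Nuclear and neuronal long noncoding RNAs had 3 of 8 members at least 2-fold higher in MSC-sEV cones and 2 lower (median 0.81), and 0 of 4 past 2-fold in cone-dominant cones (median -0.076). *Malat1*, which stays in the nucleus, stood at 36514 CPM in MSC-sEV and 21557 CPM in PBS cones (1.69), with 0.916 in cone-dominant cones and 1.66 in rods. *Kcnq1ot1*, an imprinted antisense RNA, stood at 381 and 121 CPM (3.15), with 1.35. *Snhg11* had 4 UMIs in MSC-sEV and 104 in PBS cones, and 1 barcode gave 51.9% of the PBS sum.

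**Figure D5:**
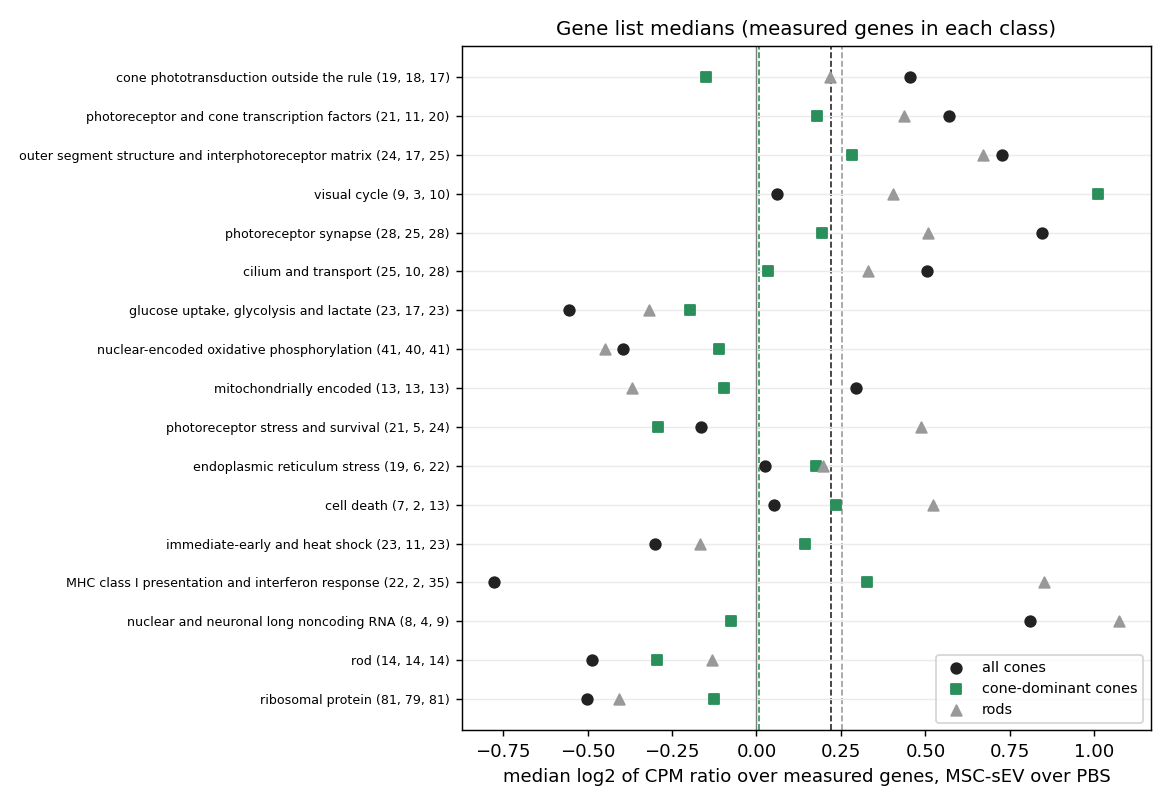
Median log2 CPM ratio, MSC-sEV over PBS, of each gene list in all cones, cone-dominant cones and rods, with dashed lines at the medians of all measured genes and the numbers measured in each class beside the name. Synaptic genes (0.84) and outer segment genes (0.73) lie above the median of all genes in all cones (0.22), glycolysis (-0.55) and ribosomal protein genes (-0.50) below it, and the cone-dominant values lie nearer to 0 for these 4 lists.

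Of single genes with the largest ratios over all cones, several also had high ratios in cone-dominant cones. Those are part of the same barcodes, so their ratios are not separate support. *Lars2*, the mitochondrial leucyl-tRNA synthetase, had 845 UMIs in MSC-sEV and 445 in PBS cones, from 54 and 84 barcodes (4.15-fold in CPM, 3.69 to 4.66), and was 3.24-fold higher in cone-dominant cones and 1.96-fold in rods. *Gm42418*, whose sequence overlaps ribosomal RNA, stood at 16764 and 5359 CPM (3.13-fold), with 2.54 in cone-dominant cones and 1.35 in rods, and *Gm10600* had 116 and 43 UMIs (5.89-fold, 4.12 to 8.57), with 4.82 (2.44 to 10.6). *Hlf*, a transcription factor of the PAR family, had 142 and 72 UMIs (4.31-fold), with 4.86 (2.27 to 11.9) in cone-dominant cones. The ratios of *Lhx4*, a LIM homeodomain factor (4.44, 3.21 to 6.21), *Dscam*, an adhesion molecule (5.40), *Nav1*, a microtubule-binding protein (3.74), and *Myo10*, an unconventional myosin (4.44), were 1.76, 2.41, 1.65 and 1.00 in cone-dominant cones. For *Srgn*, a proteoglycan of blood cells, 1 barcode gave 87.6% of the MSC-sEV UMIs.

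The lowest genes included transcripts known from other cells, and their UMIs lay in PBS barcodes that were not cone-dominant. *Cartpt*, an amacrine cell neuropeptide, had 4 UMIs in MSC-sEV and 3320 in PBS cones, of which 1 barcode gave 33.5%. Globin transcripts of red blood cells, *Hba-a1*, *Hba-a2*, *Hbb-bs* and *Hbb-bt*, had 9, 5, 24 and 4 UMIs in MSC-sEV and 4202, 3031, 7199 and 1002 in PBS cones, and their near-identical copies make the split between them uncertain. The microglial genes *Ccl12*, *Ccl3* and *Ly86* had 6, 3 and 5 against 386, 204 and 305 UMIs. *Ctgf*, a matrix protein, and *Serpine2*, a protease inhibitor, had 0 against 136 and 73. With 3 counts in place of 0 they were 20.8-fold and 11.1-fold lower, and their intervals began at 16.7-fold and 8.84-fold. Each of these 10 genes had at most 8 UMIs in the cone-dominant cones of either library.

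Applied to cone-dominant cones, the same rule named further genes. *Prrc2a* had 59 UMIs in MSC-sEV and 11 in PBS (4.53-fold, 2.36 to 9.57), *Fam168a* 77 and 16 (4.07-fold), *Cds2*, a phospholipid enzyme, 83 and 20 (3.51-fold), *Heg1* 58 and 13 (3.77-fold) and *Adcy1*, an adenylate cyclase, 45 and 9 (4.23-fold). In rods these genes were 1.92-, 1.91-, 1.79-, 3.11- and 2.59-fold higher in MSC-sEV. The dopamine receptor gene *Drd4*, the receptor through which dopamine acts on photoreceptors, had 63 and 157 UMIs (2.95-fold lower, 2.19 to 4.02). *Fos*, an immediate-early gene, had 27 and 72 UMIs (3.16-fold lower, 2.00 to 5.11), *Tmem230* 36 and 74 (2.43-fold lower) and the histone gene *Hist3h2ba* 54 and 106 (2.32-fold lower). In rods *Drd4*, *Fos*, *Tmem230* and *Hist3h2ba* were 1.19-, 1.13-, 1.37- and 1.90-fold lower. *Opn1sw*, *Rcvrn*, *Hspa8*, *Aipl1* and *Hnrnpk*, an RNA-binding protein, were 1.93-, 1.96-, 2.03-, 1.68- and 1.96-fold lower. *Opn1sw* is a rule gene, so its place among these genes is a description and not a finding. In rods *Rcvrn*, *Hspa8*, *Aipl1* and *Hnrnpk* were 1.87-, 1.81-, 1.40- and 1.26-fold lower. For *Stmn1*, with 14 and 38 UMIs, 1 barcode gave 84.2% of the PBS sum.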

How the data were processed

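Per the labels, the authors made the deposited values, raw UMI counts per gene and barcode, with Cell Ranger 3.0.2 against mm10, and the annotation release is not given in the sources used here. The MSC-sEV library held 16987131 UMIs in 2593 barcodes and the PBS library 8439740 in 1676, over 31053 features. Kept barcodes had 500 or more UMIs, 300 or more genes and no more than 15% mitochondrial UMIs. Rods were kept barcodes outside the cone rule with 4 or more of 8 rod genes seen, at 10 or more UMIs and 3% or more of UMIs, and microglia likewise at 0.5%. No doublet caller was run and no doublets were removed.

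UMIs were summed per class and library, scaled to CPM and divided, MSC-sEV over PBS, with exact conditional binomial intervals for ratios and Clopper-Pearson intervals for shares, both at 95%. A library at 0 entered at a floor of 3 counts over the class. A gene was measured at 50 or more UMIs over both libraries, and the fold limit was 2. Python 3.11.15, numpy 2.4.6, scipy 1.17.1, pandas 2.3.3 and matplotlib 3.10.9 were used, and the ratio code was tested on simulated data.

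The cone rule, the 15 gene lists and the rule for named genes were chosen with earlier results of these data known. Named were the 8 rule genes, up to 6 members of a list with the most UMIs and its 2 largest ratios each way, and the 10 highest and 10 lowest genes by the interval bound nearest to 1 (a UMI in 10% or more of cones of the higher library, without mitochondrial, ribosomal protein, sex-linked and other cells' marker genes). The 15 genes highest over rods and 5 each way between opsin ranges followed the same bound in the weaker library. Alternatives changed the cell filter, cone rule, mixed cells, denominator, scaling, cell weights, depth, low-count limit, fold and opsin limits. Some genes named by this rule were left out here.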

Additional observations from a re-analysis of the deposited data

Results flagged for a closer look

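3 gene lists had medians on opposite sides of 0 in cones and in rods, the other photoreceptors, under the same MSC-sEV over PBS comparison. With 1 library per group the difference was not tested. For MHC class I presentation and interferon response the median log2 ratio was -0.78 in cones (22 genes) and 0.85 in rods (35 genes). In cone-dominant cones, with 2 genes measured, it was 0.33. For mitochondrially encoded genes it was 0.29 in cones and -0.37 in rods (13 genes each), and -0.097 in cone-dominant cones. For stress and survival genes it was -0.16 in cones (21 genes) and 0.49 in rods (24 genes), and -0.29 over the 5 genes measured in cone-dominant cones. On the side of the rods, it was 0.60 without cones over 0.3% leukocyte markers and 0.041 with rule genes at 1% or more.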

How the results depend on the processing

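No paired analysis was possible because each group had 1 library, and for the same reason no replicate could be left out. The ratio of cone shares, 0.316, was 0.492 with rule genes at 1% or more, 0.480 for cone-dominant barcodes, and 0.454 both among photoreceptors and among barcodes that are not leukocytes. The 1211 genes at least 2-fold higher and 389 lower became 202 and 45 with rule genes at 1% or more, 497 and 71 without cones over 0.3% leukocyte markers, 78 and 25 in cone-dominant barcodes, 669 and 663 with median-of-ratios scaling, 11 and 26 when thinned to 1000 UMIs and 2552 and 1102 at a fold of 1.5. With the mean of per-cell CPM 638 were higher, and with a limit of 20 UMIs 717 were lower. The share of higher genes among both was 75.7%, against 87.5% without leukocyte-rich cones, 50.2% with median-of-ratios scaling, 56.4% by per-cell means and 29.7% when thinned. Median-of-ratios scaling lowered every log2 ratio by 0.22. The median log2 ratio of nuclear-encoded oxidative phosphorylation, -0.40, was -0.19 with rule genes at 1% or more, -0.32 without the deepest 5% of cones, -0.11 in cone-dominant cones, -0.62 with median-of-ratios scaling, -0.16 by per-cell means and -0.073 when thinned. That of ribosomal proteins, -0.50, was -0.28, -0.43, -0.13, -0.72, -0.35 and -0.36 in the same order, with -0.41 without leukocyte-rich cones and -0.55 on totals without mitochondrial, rod and rule genes. The MHC class I and interferon median, -0.78, turned to 0.23 with rule genes at 1% or more, 0.59 without leukocyte-rich cones and 0.33 in cone-dominant cones. The mitochondrially encoded median, 0.29, turned to -0.097 in cone-dominant cones and -0.041 when thinned, and was 0.0031 by per-cell means. The endoplasmic reticulum median, 0.026, was 0.16 with rule genes at 1% or more, 0.18 in cone-dominant cones and -0.20 with median-of-ratios scaling, and the glycolysis median was -0.78 with that scaling. The immediate-early median, -0.30, was 0.14 in cone-dominant cones and 0.28 when thinned. In cone-dominant cones the outer segment, visual cycle and synapse medians were 0.28, 1.01 and 0.19. Opn1mw-rich cones were 30.4% of PBS cones there. In cone-dominant cones the log2 ratios of *Opn1mw*, *Cngb3*, *Arr3*, *Gnat2*, *Pde6h* and *Gngt2* turned to -0.20, -0.13, -0.12, -0.45, -0.23 and -0.32, and *Gnat2*, *Pde6h* and *Gngt2* had -0.18, -0.025 and -0.063 with rule genes at 1% or more. For these results the cause was not tested. Of the other list medians 156 values stayed within the interval of the value reported, but 17 of them lay on the other side of 0. These included stress and survival (0.60 without leukocyte-rich cones, 0.041 with rule genes at 1% or more), the visual cycle (-0.093 without leukocyte-rich cones, -0.16 with median-of-ratios scaling) and, in cone-dominant cones, the rule genes (-0.21), the other phototransduction genes (-0.15) and the long noncoding RNAs (-0.076). Of named genes 167 values stayed within their interval, none of them across 0, and 91 did not. Cone-dominant barcodes, and the core motif, were added after the data had been seen. The 24 and 29 cone-dominant barcodes limit what low genes can show.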
